A study of Astyanax mexicanus with 20 samples.

Results

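The step between day 1 and day 7 after toxin injury was followed in skeletal muscle of river-dwelling surface fish, the sighted form of Astyanax mexicanus. The 5 libraries chosen were those labelled surface fish at 7 days post injury (dpi, 2 libraries) and surface fish at 1 dpi (3 libraries), of 20 in the series. Both groups had received an injection of cardiotoxin, a snake venom protein that lyses muscle fibres. Surface and cave fish of every group, including the saline-injected (PBS) controls, carry the treatment entry Free Running Darkness. No strain, sex or age is given. The series' design text speaks of 3 fish at each time point around a day, but no sample label gives an hour. Whether each library came from a different fish is not stated, and p-values therefore reflect differences among libraries that may be technical.

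Muscle destroyed by cardiotoxin is rebuilt in a known sequence. Neutrophils and then macrophages enter and clear dead fibres, muscle stem cells divide and become myoblasts under the factors Myf5, MyoD and myogenin, and myoblasts fuse into new fibres with the help of the membrane protein myomaker. Young fibres first carry embryonic and cardiac-type sarcomere proteins before the adult ones replace them, while fibroblasts remodel the matrix around them.

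Values are in transcripts per 1000000 (TPM), divided by a scaling factor per library so that most genes have equal levels, and are called scaled TPM. Changes are differences of the mean log2(scaled TPM + 1), 7 dpi minus 1 dpi, each with its standard error (SE), and they understate the change of low genes. A gene rose or fell where limma's moderated test, fitted over all 20 libraries, gave a Benjamini-Hochberg adjusted p under 0.05, and every adjusted p below comes from that test. An exact permutation test of 2 libraries against 3 cannot go below 0.2 where its two-sided p doubles the smaller tail. Single genes were therefore tested in the fit across all genes only.

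The libraries held 13492 and 14288 genes at 1 TPM or more at 7 dpi, against 13254 to 15146 at 1 dpi. Skeletal muscle markers were present in all 5: their summed level was 174210 and 164960 scaled TPM at 7 dpi, against 226780, 90127 and 42200 at 1 dpi, and 291390 to 417690 in surface controls. The 1 dpi libraries differed far more among themselves in this sum than the 7 dpi libraries did. The single gene pvalb4 made up 119380, 40626 and 19628 of the 1 dpi sums. Scaling factors of 0.9651, 1.434 and 1.921 widened their spread. Log2 values of the 2 libraries at 7 dpi correlated at 0.9617 and those within 1 dpi at 0.9588 to 0.9688, against 0.9195 to 0.9427 between the stages. In bulk tissue, fewer cells of a type and less RNA per cell cannot be told apart.

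Of 16884 genes tested, 741 changed (4.39%): 371 rose (2.2%) and 370 fell (2.19%), and at an unadjusted p under 0.05 there were 3218. The median change over all genes was 0.01. Rises were steeper than falls at the extreme, with 23 genes rising and 8 falling by more than 3 on the log2 scale. Without scaling, the median of all genes moved to -0.30 and the split became 168 higher and 660 lower. With the spread estimated from these 5 libraries alone 69 genes were called. Of the genes named below, those were pvalb1, tnni2b.1, ankrd1b, tnnt2c, ACTA1, mymk, gch2, mat1a, bhmt, otc, ARF5, chmp2ba, rrad, esm1, vcana, fosl1a, fosl1b, hp and si:ch1073-67j19.1. With 1 library left out the count lay between 199 (without surface 7 dpi replicate 2) and 503 (without surface 1 dpi replicate 1).

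**Figure D1:**
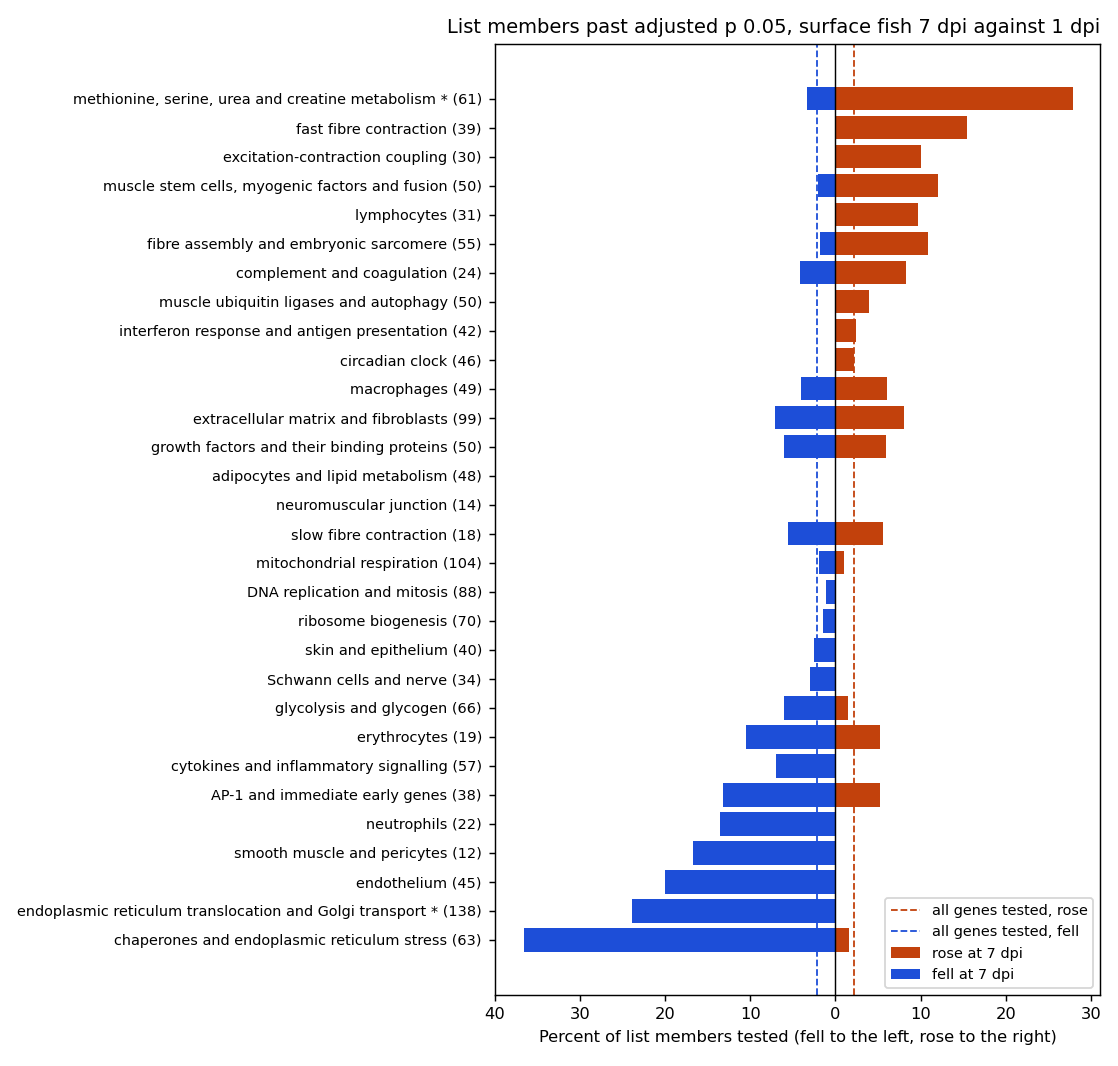
Percent of the tested members of each gene list that rose (right) or fell (left) at 7 dpi against 1 dpi in surface fish, with the number of tested members in brackets; dashed lines mark the shares over all genes tested, 2.2% and 2.19%. Asterisks mark lists drawn up after the values were seen. Chaperones, endoplasmic reticulum transport and endothelium stand at the falling end, and amino acid metabolism and fast fibre contraction at the rising end.

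The steepest rises of named genes were in sarcomere and calcium-buffer genes. The gene pvalb1, which encodes a parvalbumin, a calcium buffer of fast fibres, stood at 2269 and 3211 scaled TPM at 7 dpi, against 16.2, 3.64 and 2.51 at 1 dpi (change 8.69, SE 1.17, adjusted p = 0.00107). A second parvalbumin gene, pvalb2, stood at 10039 and 9943 scaled TPM at 7 dpi, against 436, 76.2 and 67.4 at 1 dpi (6.24, SE 0.78, adjusted p = 0.000688). Both genes also exceeded the range of surface controls at 7 dpi (14.5 to 384 scaled TPM for pvalb1 and 579 to 1326 for pvalb2), and at 14 dpi pvalb2 was still at 9196 and 15082. The most abundant parvalbumin gene, pvalb4, did not follow them: it stood at 78994 and 65553 scaled TPM at 7 dpi, against 119380, 40626 and 19628 at 1 dpi, with overlapping groups (0.66, SE 0.58, adjusted p = 0.59).

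Other sarcomere genes were nearly absent at 1 dpi and abundant at 7 dpi. The fast troponin I gene tnni2b.1 stood at 346 and 235 scaled TPM at 7 dpi, against 0.269, 0 and 0.0677 at 1 dpi (8.01, SE 0.70, adjusted p = 2.33e-05). The titin-binding, stress-responsive gene ankrd1b stood at 160 and 88.2 scaled TPM at 7 dpi, against 0, 0.0837 and 0.239 at 1 dpi (6.76, SE 0.59, adjusted p = 2.33e-05). The cardiac-type troponin T gene tnnt2c stood at 52.1 and 30.0 scaled TPM at 7 dpi, against 0.642, 0.600 and 0 at 1 dpi (4.88, SE 0.70, adjusted p = 0.00164). All 3 were at or below 5.01 scaled TPM in every surface control, so their 7 dpi levels exceeded those of saline-injected muscle as well as those of 1 dpi. At 14 dpi the 2 surface libraries differed: tnni2b.1 stood at 2.35 and 26.6 scaled TPM, ankrd1b at 1.11 and 16.8, and tnnt2c at 0 and 4.41.

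Actins of the cardiac and skeletal type rose with them. The cardiac actin gene actc1a, used by embryonic skeletal muscle, stood at 516 and 487 scaled TPM at 7 dpi, against a listed 0, 18.2 and 40.5 at 1 dpi (5.76, SE 1.16, adjusted p = 0.0133). An identifier named ACTA1 (ENSAMXG00000003516, chosen after its values were seen) stood at 118 and 159 scaled TPM at 7 dpi, against 10.6, 19.2 and 14.1 at 1 dpi (3.18, SE 0.49, adjusted p = 0.00325), and at 8.95 to 16.6 in surface controls. The Z-disc gene myoz2a (calsarcin) stood at 198 and 173 scaled TPM at 7 dpi, against 21.3, 4.06 and 0.265 at 1 dpi (5.15, SE 1.00, adjusted p = 0.011). Without surface 7 dpi replicate 1 or 2, the adjusted p of actc1a was 0.0758 or 0.0803 and that of myoz2a 0.0661 or 0.0665. Actin, troponin and parvalbumin genes are families of near-identical copies, and reads shared among copies could be split between them by the estimation of TPM.

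**Figure D2:**
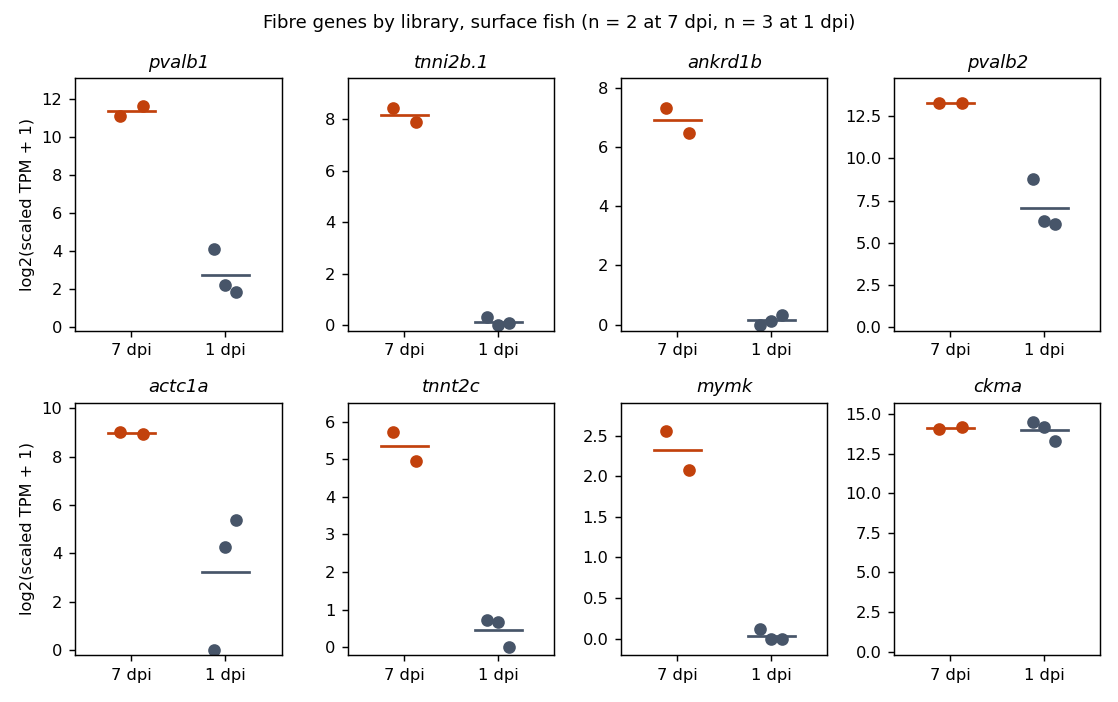
Log2(scaled TPM + 1) of 8 fibre genes in each surface library at 7 dpi (left) and 1 dpi (right); points are libraries and lines are group means. Except for ckma, every 7 dpi library lies above every 1 dpi library; in ckma the groups overlap.

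As lists, a minority of fibre genes rose. Over all genes tested 2.2% rose and 2.19% fell. Of 55 tested genes of fibre assembly and the embryonic sarcomere 6 rose (10.9%) and 1 fell, with a median change of 0.19 that turned to -0.23 without scaling. Of 39 genes of fast fibre contraction 6 rose (15.4%) and 0 fell, with a median of 0.66. That count was 14 without surface 1 dpi replicate 1, 3 without surface 1 dpi replicate 3 or 7 dpi replicate 1, and 2 without surface 7 dpi replicate 2, and it was 1 with the spread estimated from the 5 libraries alone. The library left out in the first case was the 1 dpi library with the highest summed level of skeletal muscle markers. The fast list includes myhb, a fast myosin heavy chain gene, at 17.5 and 43.2 scaled TPM at 7 dpi, against 0.280, 0.948 and 1.16 at 1 dpi (4.03, SE 0.85, adjusted p = 0.0162, and 0.143 without surface 7 dpi replicate 2). The adult creatine kinase gene ckma, at 16754 and 18381 scaled TPM at 7 dpi, against 22906, 18420 and 10233 at 1 dpi, did not pass the test (0.11, SE 0.33, adjusted p = 0.909), but under quantile normalization its change was -1.20 (adjusted p = 0.0154).

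Of 18 slow fibre genes 1 rose, myoz2a, and 1 fell, the tropomyosin gene tpm4a, which non-muscle cells also use (-1.08, SE 0.20, adjusted p = 0.00761, and 0.0978 without surface 7 dpi replicate 2). Each made up 5.56% of the slow list, where 2.2% of all genes rose and 2.19% fell. Of 30 genes of excitation-contraction coupling 3 rose (10%, against 2.2% of all genes) and 0 fell. They were casq1b, the calsequestrin that stores calcium in the sarcoplasmic reticulum (2.39, SE 0.42, adjusted p = 0.0061), srl, which encodes sarcalumenin of the same store (1.48, SE 0.32, adjusted p = 0.0185), and the potassium channel gene kcnj11 (1.22, SE 0.31, adjusted p = 0.0355). The gene casq1b stood at 227 and 236 scaled TPM at 7 dpi, against 83.1, 44.7 and 21.7 at 1 dpi, and at 133 to 232 in surface controls. None of these 3 calls held without surface 7 dpi replicate 2 (adjusted p = 0.0551 for casq1b, 0.0899 for srl and 0.22 for kcnj11). That of srl was also lost without surface 1 dpi replicate 3 (0.0512) or 7 dpi replicate 1 (0.105), and that of kcnj11 without surface 1 dpi replicate 2 (0.0549), replicate 3 (0.115) or 7 dpi replicate 1 (0.089).

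Of 14 genes of the neuromuscular junction 0 passed the test, with a median of 0.19 that turned to -0.20 without scaling. Reads of the acetylcholine receptor alpha subunit fell on separate identifiers. The one written chrna1 stood at 21.2 and 15.3 scaled TPM at 7 dpi, against 4.82, 7.08 and 3.35 at 1 dpi (1.69, SE 0.65, adjusted p = 0.162). The one written CHRNA1 stood at 76.0 and 73.4 at 7 dpi, against 36.2, 53.8 and 50.5 at 1 dpi (0.68, SE 0.24, adjusted p = 0.13). Both were higher in each 7 dpi library than in any 1 dpi library without passing the test, as 19.3% of all genes tested were placed.

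Among genes of the myogenic list, the smallest adjusted p was that of mymk. The myomaker gene mymk stood at 4.90 and 3.23 scaled TPM at 7 dpi, against 0.0829, 0 and 0 at 1 dpi (2.28, SE 0.21, adjusted p = 3.13e-05), and at 0 to 0.204 in surface controls and 0.673 and 0.468 at 14 dpi. The cell adhesion gene ncam1a, expressed by activated muscle stem cells and young fibres, stood at 7.70 and 5.70 scaled TPM at 7 dpi, against 0.870, 1.42 and 1.098 at 1 dpi (1.85, SE 0.31, adjusted p = 0.00451). The calls of mymk and ncam1a held whichever of the 5 libraries was left out.

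Of 50 tested genes of muscle stem cells, myogenic factors and fusion 6 rose (12%, against 2.2% of all genes) and 1 fell. The median was 0.14 and turned to -0.22 without scaling. The count of rises lay between 2, without surface 1 dpi replicate 2 or 7 dpi replicate 1, and 4, and it was 3 without surface 1 dpi replicate 1. The myogenic factor gene myf5 stood at 5.61 and 4.64 scaled TPM at 7 dpi, against 1.93, 1.84 and 1.62 at 1 dpi (1.13, SE 0.28, adjusted p = 0.0344, and between 0.0632 and 0.199 with any 1 of the 5 libraries left out). The engulfment receptor gene megf10, which marks satellite cells, rose by 0.84 (SE 0.18, adjusted p = 0.0174, and 0.0528, 0.129 and 0.0637 without surface 1 dpi replicate 2, 7 dpi replicate 1 and 7 dpi replicate 2).

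Other myogenic factors did not pass the test. The myogenin gene myog stood at 63.3 and 47.0 scaled TPM at 7 dpi, against 17.5, 16.3 and 23.9 at 1 dpi (1.47, SE 0.75, adjusted p = 0.303). The 2 groups did not overlap, and surface controls spanned 0.943 to 17.7, so myog was already near or above the top of that range at 1 dpi. The MyoD gene myod1 stood at 116 and 132 scaled TPM at 7 dpi, against 156, 113 and 50.5 at 1 dpi, with overlap (0.36, SE 0.51, adjusted p = 0.768). The stem cell gene pax7b changed by 0.38 (SE 0.26, adjusted p = 0.471), and pax7a lay below the level needed for testing.

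Regulators of muscle growth split between gene copies. The follistatin gene fsta, an antagonist of myostatin, stood at 2.21 and 1.98 scaled TPM at 7 dpi, against 7.79, 8.88 and 16.7 at 1 dpi (-1.90, SE 0.35, adjusted p = 0.00721). Its copy fstb stood at 2.32 and 2.45 scaled TPM at 7 dpi, against 0.549, 0.537 and 0.609 at 1 dpi (1.11, SE 0.22, adjusted p = 0.0133). The 2 copies moved in opposite directions, and at 7 dpi their levels met. The call of fsta was lost without surface 7 dpi replicate 2 (0.0646) and that of fstb without surface 7 dpi replicate 1 (0.0651) or 2 (0.0878). The myostatin gene mstnb stood at 4.43 and 3.89 scaled TPM at 7 dpi, against 6.53, 4.09 and 1.66 at 1 dpi, below the 16.5 to 31.2 of surface controls at both stages (0.14, SE 0.58, adjusted p = 0.933). In the whole list of 50 growth factor and binding protein genes 3 rose (6%) and 3 fell (6%), against 2.2% and 2.19% of all genes.

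Matrix genes moved both ways. Of 99 tested matrix and fibroblast genes 8 rose (8.08%) and 7 fell (7.07%), against 2.2% and 2.19% of all genes. Leaving out 1 library gave between 0 (without surface 7 dpi replicate 1) and 10 (without surface 1 dpi replicate 1) rises and between 1 (without surface 7 dpi replicate 2) and 5 falls. Among the rises was MFAP2, a protein of elastic microfibrils, at 93.9 and 44.0 scaled TPM at 7 dpi, against 8.58, 2.78 and 2.05 at 1 dpi (3.77, SE 0.67, adjusted p = 0.0061, and 0.0711 without surface 7 dpi replicate 1). Among the falls was vcana, which encodes versican, a proteoglycan of the provisional matrix, at 1.27 and 1.599 scaled TPM at 7 dpi, against 7.29, 8.92 and 7.42 at 1 dpi (-1.86, SE 0.31, adjusted p = 0.00474). The growth-factor-binding matrix gene ccn4a fell too (-1.74, SE 0.34, adjusted p = 0.0116, and 0.0506 or 0.0846 without surface 7 dpi replicate 1 or 2).

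Both type I collagen genes examined missed the threshold. The gene col1a1a stood at 1008 and 635 scaled TPM at 7 dpi, against 793, 343 and 174 at 1 dpi (1.14, SE 0.54, adjusted p = 0.262). The gene col1a2 stood at 893 and 537 scaled TPM at 7 dpi, against 492, 240 and 134 at 1 dpi (1.46, SE 0.50, adjusted p = 0.119, and 0.0416 without surface 1 dpi replicate 1). The early-wound matrix genes fn1a (0.15, SE 0.53) and tnc (0.22, SE 0.38) overlapped between stages, with adjusted p of 0.923 and 0.816.

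The steepest fall of a named gene was that of hp, which encodes haptoglobin, the scavenger of free haemoglobin. It stood at 9.40 and 14.4 scaled TPM at 7 dpi, against 274, 321 and 184 at 1 dpi (-4.33, SE 0.65, adjusted p = 0.00235), and at 15.6 to 23.7 in surface controls. An identifier with only a clone name, si:ch1073-67j19.1 (singled out after its values were seen), fell further still. It stood at 1.59 and 1.12 scaled TPM at 7 dpi, against 80.9, 88.1 and 47.0 at 1 dpi (-4.91, SE 0.39, adjusted p = 1.49e-05), and at 0 to 0.155 in surface controls. Both calls held with any 1 of the 5 libraries left out. Beside the fall of hp, summed erythrocyte markers stood at 50.2 and 44.5 scaled TPM at 7 dpi, against 407, 264 and 65.1 at 1 dpi, with none of the 4 detected at 0, and their part in the result was not tested. Of 19 erythrocyte genes 2 fell (10.5%) and 1 rose (5.26%), against 2.19% and 2.2% of all genes. Among the falls was the biliverdin reductase gene blvrb (-1.88, SE 0.34, adjusted p = 0.00721, which became 0.0807 when surface 7 dpi replicate 2 was left out).

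Of 57 cytokine and signalling genes 4 fell (7.02%, against 2.19% of all genes), namely socs3a, socs3b, cxcl14 and csf1a, and 0 rose. The gene socs3a, a feedback inhibitor of cytokine receptors, stood at 24.4 and 10.96 scaled TPM at 7 dpi, against 79.9, 88.2 and 81.0 at 1 dpi (-2.27, SE 0.51, adjusted p = 0.0206). Its copy socs3b stood at 12.6 and 8.38 scaled TPM at 7 dpi, against 34.5, 33.98 and 36.4 at 1 dpi (-1.67, SE 0.34, adjusted p = 0.0144). The chemokine gene cxcl14 changed by -2.05 (SE 0.41, adjusted p = 0.0133), and csf1a, a macrophage growth factor gene, by -1.33 (SE 0.27, adjusted p = 0.0143). None of the 4 calls held without surface 7 dpi replicate 2 (adjusted p = 0.195 for socs3a, 0.134 for socs3b, 0.0809 for cxcl14 and 0.113 for csf1a). That of socs3a was also lost without surface 1 dpi replicate 2 (0.0601) or 3 (0.0502), and that of cxcl14 without surface 1 dpi replicate 2 (0.0504) or 7 dpi replicate 1 (0.0731). The interleukin gene il1b, on 2 identifiers, did not pass the test: changes were -1.05 (SE 0.83, adjusted p = 0.542) for ENSAMXG00000035729 and -1.13 (SE 0.59, adjusted p = 0.322) for ENSAMXG00000031873.

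Some immediate early transcription factors of the AP-1 family, which switch on within hours of tissue damage, were among the falls. The gene fosl1a stood at 1.42 and 0.916 scaled TPM at 7 dpi, against 9.48, 13.7 and 14.5 at 1 dpi (-2.63, SE 0.35, adjusted p = 0.00102), a call that held with any 1 of the 5 libraries left out. Its copy fosl1b stood at 5.74 and 4.86 scaled TPM at 7 dpi, against 19.2, 21.2 and 16.9 at 1 dpi (-1.67, SE 0.31, adjusted p = 0.00862, and 0.0741 without surface 7 dpi replicate 2). At 7 dpi fosl1b was still above its surface control range of 0 to 0.422. The sum over the AP-1 and immediate early list overlapped between stages, at 738 and 730 scaled TPM at 7 dpi, against 958, 915 and 674 at 1 dpi. Both stages lay below the 1216 to 1766 of surface controls. The 2 rises in the list were of 0.75 and 1.33. Over all genes tested 2.19% fell and 2.2% rose. Of 38 AP-1 and immediate early genes 5 fell (13.2%) and 2 rose, and leaving out 1 library gave between 1 (without surface 7 dpi replicate 2) and 4 falls, with 3 without surface 1 dpi replicate 1 or 2.

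**Figure D3:**
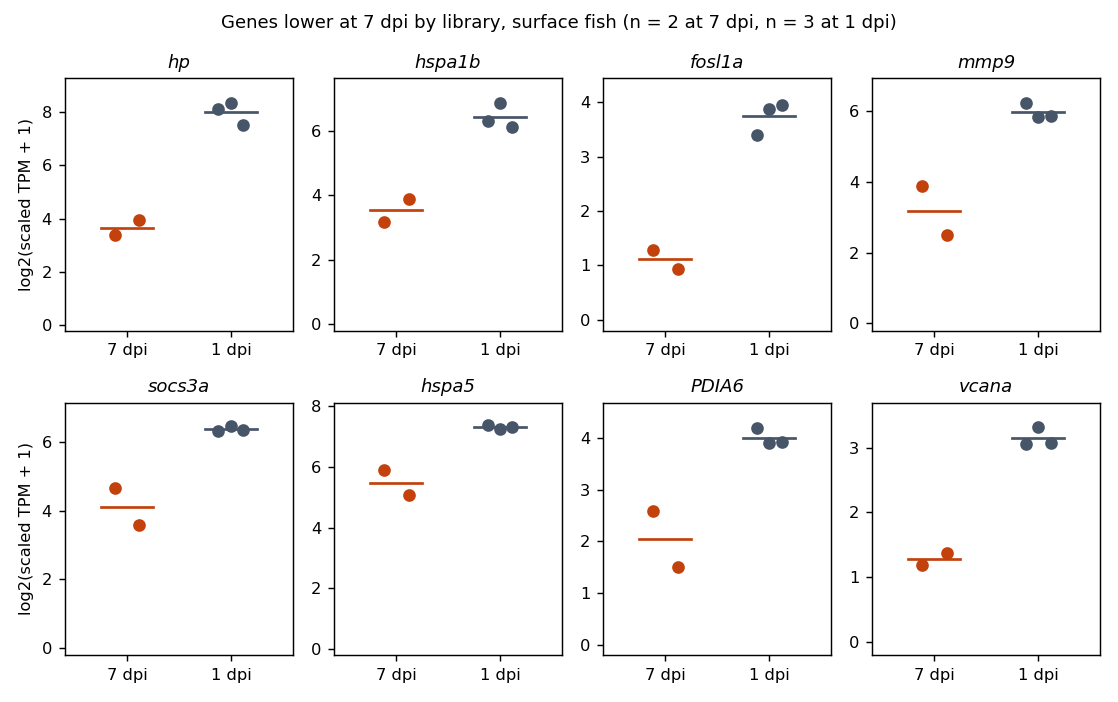
Log2(scaled TPM + 1) of 8 genes that fell, in each surface library at 7 dpi (left) and 1 dpi (right); points are libraries and lines are group means. In each gene both 7 dpi libraries lie below all 3 libraries at 1 dpi.

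A few genes linked to neutrophils fell. The leukotriene synthesis gene alox5ap stood at 0.688 and 0.146 scaled TPM at 7 dpi, against 7.96, 4.57 and 3.22 at 1 dpi (-2.10, SE 0.39, adjusted p = 0.00859), and at 0 to 0.266 in surface controls. The matrix protease gene mmp9, released by neutrophils and other wound cells, stood at 13.7 and 4.69 scaled TPM at 7 dpi, against 73.9, 55.9 and 57.5 at 1 dpi (-2.78, SE 0.59, adjusted p = 0.0174). Of 22 neutrophil genes 3 fell (13.6%, against 2.19% of all genes) and 0 rose (against 2.2%). The myeloperoxidase gene mpx was not among them, at 1.77 and 0.556 scaled TPM at 7 dpi, against 2.97, 1.92 and 2.08 at 1 dpi (-0.67, SE 0.48, adjusted p = 0.489). Summed neutrophil markers overlapped between stages, at 95.9 and 45.8 scaled TPM at 7 dpi, against 89.0, 94.8 and 59.9 at 1 dpi, with both lysozyme identifiers (LYZ) at 0 in all 5 libraries. Without surface 7 dpi replicate 2, in which neutrophil markers were lower, 0 of the 22 genes fell, and the adjusted p was 0.0912 for alox5ap and 0.172 for mmp9. The count was 1 without surface 1 dpi replicate 1 or 2.

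Summed macrophage and lymphocyte markers were higher at 7 dpi, whereas the sums of the longer lists overlapped between stages. The 13 macrophage marker identifiers, all above 0 in the 5 libraries, summed to 256 and 172 scaled TPM at 7 dpi, against 130, 126 and 97.2 at 1 dpi and 58.9 to 75.2 in surface controls. The list of 49 macrophage genes summed to 4613 and 2691 scaled TPM at 7 dpi, against 3193, 2940 and 2910 at 1 dpi. It had 3 rises (6.12%) and 2 falls (4.08%), against 2.2% and 2.19% of all genes. Its mannose receptor genes split: mrc1a fell (-1.02, SE 0.20, adjusted p = 0.0122), while the mrc1b identifier ENSAMXG00000004841 rose (1.22, SE 0.28, adjusted p = 0.0256). The call of mrc1a was lost without surface 7 dpi replicate 1 (0.0761) or 2 (0.0663), and that of mrc1b with any 1 of the 5 libraries left out (0.0502 to 0.141). The macrophage receptor gene csf1ra (0.39, SE 0.22, adjusted p = 0.356), the pore-forming MPEG1 (0.80, SE 0.45, adjusted p = 0.351) and the myeloid factor gene irf8 (-0.26, SE 0.29, adjusted p = 0.694) did not pass the test. At both stages irf8 was above its surface control range of 1.299 to 4.004 scaled TPM, with 11.3 and 9.88 at 7 dpi, against 14.5, 14.5 and 10.1 at 1 dpi.

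Summed lymphocyte markers stood at 27.0 and 16.4 scaled TPM at 7 dpi, against 8.41, 11.9 and 3.16 at 1 dpi and 3.03 to 5.51 in surface controls, with all 9 detected markers above 0. The list of 31 lymphocyte genes summed to 206 and 100.3 scaled TPM at 7 dpi, against 86.9, 111 and 53.2 at 1 dpi. In it 3 rose (9.68%, against 2.2% of all genes) and 0 fell. Its median was 0.65, which became -0.24 when only its 5 members at a mean of 5 TPM or more were kept. The risers were the T cell genes tcf7 (1.65, SE 0.45, adjusted p = 0.049), zap70 (1.14, SE 0.27, adjusted p = 0.029) and cd8b (0.76, SE 0.20, adjusted p = 0.0412). All 3 are low: cd8b stood at 1.32 and 1.02 scaled TPM at 7 dpi, against 0.166, 0.655 and 0.0833 at 1 dpi. With 1 library left out, 0 rose without surface 1 dpi replicate 3, 7 dpi replicate 1 or 7 dpi replicate 2, 1 rose without surface 1 dpi replicate 1, and 2 rose without surface 1 dpi replicate 2. Of 42 interferon and antigen presentation genes 1 rose (2.38%), near the 2.2% of all genes, with a median over the list of 0.60. The riser was the interferon regulator gene irf7 (1.71, SE 0.35, adjusted p = 0.0134). Its call was lost with a pseudocount of 0.1 and with only surface fish libraries or only the compared groups in the fit. Without surface 7 dpi replicate 1 or 2 the irf7 change was 1.52 or 1.90.

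Complement and coagulation genes gave 2 rises (8.33%) and 1 fall (4.17%) among 24, against 2.2% and 2.19% of all genes. The terminal complement gene c7a stood at 10.5 and 7.81 scaled TPM at 7 dpi, against 1.62, 2.18 and 1.80 at 1 dpi (1.82, SE 0.34, adjusted p = 0.00848, and 0.0759 without surface 7 dpi replicate 1). It was still at 10.4 and 10.99 scaled TPM at 14 dpi, above the 2.72 to 7.35 of surface controls. Clusterin (clu), a secreted chaperone that also binds complement, stood at 1010 and 652 scaled TPM at 7 dpi, against 135, 57.0 and 44.0 at 1 dpi (3.52, SE 0.55, adjusted p = 0.0035), and at 77.3 to 133 in surface controls. The clu call held with any 1 of the 5 libraries left out.

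The largest share of falls in any list was in chaperones and the endoplasmic reticulum stress response. Of 63 tested members 23 fell (36.5%), against 2.19% of all genes, and 1 rose, with a median of -0.39. The summed level of the list went the other way: 6939.5 and 7032.2 scaled TPM at 7 dpi, against 6518, 6465 and 6319.1 at 1 dpi. The changes of the 23 ran from -2.90 to -0.65. With 1 library left out the count of falls was 13, 12 and 14 without surface 1 dpi replicates 1, 2 and 3, 18 without surface 7 dpi replicate 1 and 6 without surface 7 dpi replicate 2. It was 6 with only surface fish libraries in the fit and 0 with the spread estimated from the 5 libraries alone.

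The 3 members with the smallest adjusted p act in the endoplasmic reticulum. The gene hspa5 encodes BiP, the main chaperone of that compartment, and stood at 58.4 and 33.0 scaled TPM at 7 dpi, against 168, 153 and 158 at 1 dpi (-1.84, SE 0.26, adjusted p = 0.00164). An identifier written PDIA6, a disulfide isomerase, stood at 4.97 and 1.81 scaled TPM at 7 dpi, against 17.3, 14.0 and 14.1 at 1 dpi (-1.97, SE 0.28, adjusted p = 0.00163). The BiP co-chaperone gene dnajb9a stood at 1.86 and 1.45 scaled TPM at 7 dpi, against 6.54, 5.98 and 4.42 at 1 dpi (-1.31, SE 0.18, adjusted p = 0.00129). These 3 calls held with any 1 of the 5 libraries left out, but with the spread estimated from the 5 libraries alone the adjusted p was 0.0808 for hspa5, 0.094 for PDIA6 and 0.0915 for dnajb9a. In surface fish at 7 dpi, 1 of the 2 libraries was still above the control range for hspa5 (25.2 to 44.4 scaled TPM) and for PDIA6 (1.198 to 2.64). The inducible cytosolic gene hspa1b fell with them, at 8.01 and 13.9 scaled TPM at 7 dpi, against 78.6, 117 and 68.6 at 1 dpi (-2.90, SE 0.50, adjusted p = 0.00523, and 0.0549 without surface 7 dpi replicate 1). The one riser was hspa8, the constitutive cytosolic chaperone (named after its values were seen), with a change of 1.21.

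A list of 138 genes of protein translocation and transport between endoplasmic reticulum and Golgi was drawn up after the values were seen, and carries no independent weight. In it 33 fell (23.9%, against 2.19% of all genes) and 0 rose, with a median of -0.39. The small GTPase identifier ARF5 (ENSAMXG00000038224), which recruits vesicle coats, stood at 20.4 and 18.6 scaled TPM at 7 dpi, against 83.1, 63.6 and 88.1 at 1 dpi (-1.94, SE 0.23, adjusted p = 0.000463). The cargo receptor gene lman1 stood at 6.22 and 7.31 scaled TPM at 7 dpi, against 12.7, 12.5 and 16.0 at 1 dpi (-0.92, SE 0.16, adjusted p = 0.00564). The retrieval receptor gene rer1 stood at 7.24 and 9.37 scaled TPM at 7 dpi, against 17.99, 16.8 and 16.5 at 1 dpi (-0.97, SE 0.17, adjusted p = 0.00601). The changes of the 33 ran from -1.94 to -0.51. The count of falls was 17, 14 and 17 without surface 1 dpi replicates 1, 2 and 3, 18 without surface 7 dpi replicate 1 and 5 without surface 7 dpi replicate 2, and it was 1 with only surface fish libraries or only the 5 libraries in the fit. Without surface 7 dpi replicate 1 the adjusted p was 0.0551 for lman1 and 0.0711 for rer1.

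Of 45 tested endothelial genes 9 fell (20%, against 2.19% of all genes) and 0 rose, with a median of -0.72. The adaptor gene she stood at 5.83 and 6.18 scaled TPM at 7 dpi, against 14.7, 19.4 and 14.6 at 1 dpi (-1.29, SE 0.21, adjusted p = 0.00451). The transcription factor gene fli1a changed by -1.33 (SE 0.23, adjusted p = 0.00529, and 0.0701 without surface 7 dpi replicate 2). The endothelial proteoglycan gene esm1, a marker of sprouting tip cells in mammals, is not in this list and was named as a steep fall. It stood at 1.01 and 0.595 scaled TPM at 7 dpi, against 9.75, 7.73 and 6.26 at 1 dpi (-2.30, SE 0.31, adjusted p = 0.00107), and at 1.18 to 2.40 in surface controls. Summed endothelial markers were lower too, at 98.0 and 83.9 scaled TPM at 7 dpi, against 139, 161 and 133 at 1 dpi and 105 to 118 in surface controls, with esamb at 0 in all 5 libraries. Leaving out 1 library gave 7, 4 and 6 falls in the list without surface 1 dpi replicates 1, 2 and 3, 5 without surface 7 dpi replicate 1 and 1 without surface 7 dpi replicate 2, and there were 0 with only the 5 libraries in the fit.

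Markers of other tissues moved in the same direction and their part in the falls was not tested. Over all genes tested 2.19% fell. Summed skin and epithelium markers stood at 656 and 621 scaled TPM at 7 dpi, against 1030, 1964 and 1048 at 1 dpi and 526 to 791 in surface controls. Of 40 skin genes 1 fell, the simple-epithelium keratin gene krt18a.1 (-1.13, SE 0.22, adjusted p = 0.0125, and 0.133 without surface 7 dpi replicate 2), with a median over the list of -1.32. Smooth muscle and pericyte markers summed to 330 and 280 scaled TPM at 7 dpi, against 427, 462 and 398 at 1 dpi. Of 12 such genes 2 fell, rgs5b and kcnj8, which mark pericytes: rgs5b changed by -1.83 (SE 0.37, adjusted p = 0.0133, which became 0.133 when surface 7 dpi replicate 2 was left out) and kcnj8 by -0.91 (SE 0.19, adjusted p = 0.0143, and 0.0521, 0.0643 and 0.0985 without surface 1 dpi replicate 2, 7 dpi replicate 1 and 7 dpi replicate 2). Schwann cell and nerve markers overlapped, at 191 and 155 scaled TPM at 7 dpi, against 190, 214 and 154 at 1 dpi, and 1 of 34 genes of that list fell.

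Further steep falls lay outside the lists. The retinoic acid synthesis gene aldh1a2 stood at 5.20 and 3.17 scaled TPM at 7 dpi, against 29.2, 23.3 and 17.6 at 1 dpi (-2.23, SE 0.30, adjusted p = 0.00107). The antioxidant reductase gene txnrd3 stood at 15.6 and 16.2 scaled TPM at 7 dpi, against 96.9, 107 and 57.4 at 1 dpi (-2.33, SE 0.32, adjusted p = 0.00125), with surface controls at 16.9 to 17.8. Both calls held with any 1 of the 5 libraries left out. The membrane repair gene chmp2ba, of the ESCRT-III complex, changed by -2.36 (SE 0.44, adjusted p = 0.00848, and 0.0705 without surface 7 dpi replicate 2). The GTPase gene rrad, an inhibitor of calcium channels that is switched on in regenerating mouse muscle, stood at 13.5 and 10.4 scaled TPM at 7 dpi, against 103, 187 and 179 at 1 dpi (-3.57, SE 0.93, adjusted p = 0.0415). The adjusted p of rrad lay between 0.0621 and 0.196 with any 1 of the 5 libraries left out.

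Among the 12 steepest rises of named genes were gatm, the first enzyme of creatine synthesis, and otc, an enzyme of the urea cycle. The gene gatm stood at 546 and 449 scaled TPM at 7 dpi, against 106, 48.3 and 8.90 at 1 dpi (3.73, SE 0.95, adjusted p = 0.0371), within the 151 to 540 of surface controls or just above it. Without surface 1 dpi replicates 2 and 3 and 7 dpi replicates 1 and 2, left out in turn, its adjusted p was 0.0709, 0.117, 0.18 and 0.148. The gene otc stood at 75.7 and 52.2 scaled TPM at 7 dpi, against 6.92, 5.07 and 3.26 at 1 dpi (3.44, SE 0.59, adjusted p = 0.00523), above the 3.94 to 18.3 of surface controls, and its call held with any 1 of the 5 libraries left out.

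A list of 61 genes of methionine, serine, urea and creatine metabolism was drawn up after these values were seen and so is no independent evidence. It had 17 rises (27.9%, against 2.2% of all genes), 2 falls (3.28%, against 2.19%) and a median of 0.79. The count of rises was 15, 9 and 10 without surface 1 dpi replicates 1, 2 and 3, 8 without surface 7 dpi replicate 1 and 7 without surface 7 dpi replicate 2, and it was 4 with only the 5 libraries in the fit. In the methionine cycle, mat1a, which makes S-adenosylmethionine, stood at 15.1 and 9.84 scaled TPM at 7 dpi, against 0.414, 0.314 and 0.260 at 1 dpi (3.31, SE 0.36, adjusted p = 0.00023). The remethylation gene bhmt stood at 275 and 403 scaled TPM at 7 dpi, against 37.4, 27.7 and 31.9 at 1 dpi (3.33, SE 0.43, adjusted p = 0.000899). The sarcosine dehydrogenase gene sardh stood at 10.5 and 14.2 scaled TPM at 7 dpi, against 2.53, 0.955 and 0.260 at 1 dpi (2.68, SE 0.43, adjusted p = 0.00399). Levels of bhmt and mat1a at 7 dpi were above every surface control, whereas sardh overlapped the control range of 5.002 to 12.3.

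The urea cycle genes next to otc rose with it. The argininosuccinate synthase identifier ASS1 stood at 73.8 and 41.0 scaled TPM at 7 dpi, against 4.80, 6.18 and 2.94 at 1 dpi (3.36, SE 0.48, adjusted p = 0.00163). The argininosuccinate lyase gene asl stood at 10.8 and 6.36 scaled TPM at 7 dpi, against 1.72, 2.27 and 3.14 at 1 dpi (1.49, SE 0.22, adjusted p = 0.00223). The asl call was lost without scaling and with only surface fish libraries or only the compared groups in the fit (adjusted p up to 0.112). The arginase gene arg2, which consumes the arginine these enzymes make, went the other way, at 12.6 and 6.44 scaled TPM at 7 dpi, against 25.1, 36.7 and 28.3 at 1 dpi (-1.605, SE 0.32, adjusted p = 0.0128, and 0.148 without surface 7 dpi replicate 2). At 7 dpi arg2 was below every 1 dpi library and below the 34.3 to 61.8 of surface controls. The pterin-recycling gene qdpra (named after its values were seen) stood at 15.7 and 8.198 scaled TPM at 7 dpi, against 1.48, 1.89 and 0.271 at 1 dpi (2.57, SE 0.56, adjusted p = 0.0192, and 0.0643, 0.16 and 0.0564 without surface 1 dpi replicate 3, 7 dpi replicate 1 and 7 dpi replicate 2).

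**Figure D4:**
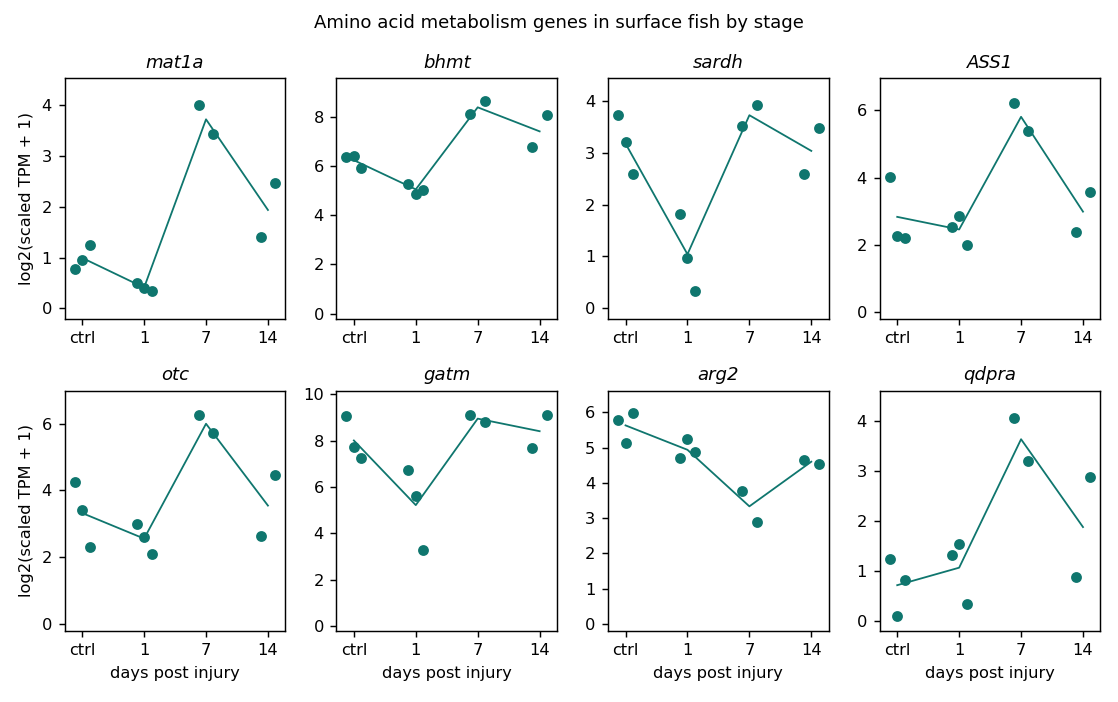
Log2(scaled TPM + 1) of 8 genes of amino acid and pterin metabolism in surface fish at control, 1, 7 and 14 dpi; points are libraries and lines join group means. All but arg2 stand higher in each 7 dpi library than in any 1 dpi library, and arg2 lower.

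Few single genes of energy metabolism passed the test. Of 66 glycolysis and glycogen genes 4 fell (6.06%, against 2.19% of all genes) and 1 rose (1.52%, against 2.2%). The steepest fall was that of the glycogen gene ppp1r3cb, at 41.0 and 73.1 scaled TPM at 7 dpi, against 167, 117 and 191 at 1 dpi (-1.48, SE 0.35, adjusted p = 0.0265). Its adjusted p was 0.0633 or 0.0836 without surface 1 dpi replicate 1 or 3, and its change was -1.07 without surface 7 dpi replicate 1. The falls also included 2 copies other than the main muscle forms. They were gapdhs at 112 and 47.5 scaled TPM at 7 dpi, against 188, 176 and 163 at 1 dpi (-1.26, SE 0.28, adjusted p = 0.0192), and aldocb (-1.11, SE 0.25, adjusted p = 0.0206). The riser was eno3, the muscle enolase gene (named after its values were seen), with a change of 1.097. Neither fall held without surface 7 dpi replicate 2 (adjusted p = 0.215 for gapdhs and 0.224 for aldocb), and gapdhs was also lost without surface 1 dpi replicate 1 (0.0505) or 2 (0.0534) and aldocb without surface 1 dpi replicate 2 (0.0732).

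Of 104 mitochondrial respiration genes 97 had a change below 0, with a median of -0.37, against 0.01 over all genes. In 57 of the 104 both 7 dpi libraries lay below all 3 at 1 dpi, as in 18.3% of all genes tested. The list summed to 26976 and 33017 scaled TPM at 7 dpi, against 37830, 41807 and 34541 at 1 dpi, and 23590 to 51654 in surface controls. Only 2 fell past the threshold (1.92%, against 2.19% of all genes) and 1 rose. The complex I gene NDUFS1 stood at 10.9 and 9.01 scaled TPM at 7 dpi, against 14.4, 18.8 and 16.2 at 1 dpi (-0.67, SE 0.17, adjusted p = 0.0388), and between 0.0813 and 0.236 without surface 1 dpi replicate 2 or 3 or 7 dpi replicate 1 or 2. The genes of adipocytes and lipid metabolism had 0 calls among 48, with a median of -0.36.

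Cell division genes were called no more often than all genes tested: 1.14% fell and 0% rose, against 2.19% and 2.2%. Of 88 replication and mitosis genes 1 fell, the cyclin gene ccnd1 (-1.04, SE 0.25, adjusted p = 0.0299, and 0.0806, 0.0736 and 0.235 without surface 1 dpi replicates 1 and 2 and 7 dpi replicate 2). The replication clamp gene pcna stood at 28.5 and 9.21 scaled TPM at 7 dpi, against 16.1, 24.8 and 22.2 at 1 dpi (-0.32, SE 0.47, adjusted p = 0.769). The mitotic topoisomerase gene top2a stood at 5.4 and 0.838 scaled TPM at 7 dpi, against 0.611, 2.06 and 0.822 at 1 dpi (0.72, SE 0.45, adjusted p = 0.41). In both, surface 7 dpi replicate 1 was the highest of the 5 libraries and replicate 2 within or below the range of the 1 dpi libraries, so the 7 dpi pair differed in division markers. Falls made up 1.43% of ribosome biogenesis genes, against 2.19% of all genes. Rises made up 4% of ubiquitin ligase and autophagy genes and 2.17% of clock genes, against 2.2% of all genes. Of 70 ribosome biogenesis genes 1 fell, of 50 ubiquitin ligase and autophagy genes 2 rose, and of 46 clock genes 1 rose, the light-repair photolyase relative cry-dash (1.46, SE 0.28, adjusted p = 0.00981, and 0.0902 without surface 7 dpi replicate 1).

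The same step was then set beside that of cave fish, the blind form of the species (2 libraries at 7 dpi and 3 at 1 dpi). In cave fish 1616 genes changed (9.57%), 4.26% of genes rising and 5.31% falling. Of the surface genes called, 426 were also called in cave fish in the same direction, which is 57.5% of the surface calls and 26.4% of the cave calls, and 6 were called in the opposite direction. For pvalb1 the surface change exceeded the cave change by 0.33 (SE 1.65, adjusted p = 0.996), for tnni2b.1 by 0.55 (SE 0.99, adjusted p = 0.988) and for hspa5 by 0.29 (SE 0.37, adjusted p = 0.975), and for mymk it was lower (-0.46, SE 0.29, adjusted p = 0.856). These differences did not pass the test, which at this size does not show that the forms act alike.

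The test of the difference itself passed for 19 genes (0.113%), 15 with a higher (0.0888%) and 4 with a lower (0.0237%) change in surface fish, and for 1179 at an unadjusted p under 0.05. Leaving out 1 of the 10 libraries gave between 7 (without cave 7 dpi replicate 1) and 43 (without cave 1 dpi replicate 3), and keeping only genes at a mean of 5 TPM or more gave 0, with 448 at an unadjusted p under 0.05. The smallest adjusted p among named genes was that of emb, which encodes embigin, a partner of lactate transporters. It stood at 1.18 and 0.965 scaled TPM in surface fish at 7 dpi, against 0.591, 0.411 and 0.349 at 1 dpi, and at 0.466 and 0.524 in cave fish at 7 dpi, against 9.78, 13.3 and 6.79 at 1 dpi. The difference of the changes was 3.35 (SE 0.30, adjusted p = 9.77e-05). The 3 cave libraries at 1 dpi stood above all the others. The surface change of emb by itself did not pass the test (0.52, SE 0.22, adjusted p = 0.205).

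The cave 1 dpi libraries were also the highest in c6ast1, an astacin-type protease gene, with a difference of 2.14 (SE 0.35, adjusted p = 0.0266), and in kctd5a, with 1.90 (SE 0.33, adjusted p = 0.0323). In surface fish alone neither change passed the test (adjusted p = 0.156 for c6ast1 and 0.31 for kctd5a). In vwa11 (2.98, SE 0.50, adjusted p = 0.0266) and the cathepsin identifier ctsl.1 (ENSAMXG00000001934, 2.003, SE 0.35, adjusted p = 0.0376) the gene rose in surface fish and fell in cave fish. The calls of these 4 were each lost in 7 or more of the 10 omissions of 1 library, and each was also lost with a pseudocount of 0.1. The myosin light chain gene myl4 rose in both forms and less in surface fish, at 0.621 and 1.44 scaled TPM at 7 dpi and listed at 0 in all 3 libraries at 1 dpi, against 5.27 and 5.38 at 7 dpi and a listed 0 in all 3 at 1 dpi in cave fish (difference -1.67, SE 0.23, adjusted p = 0.0073). The myl4 call was lost with a pseudocount of 0.1 and with only the compared groups in the fit (adjusted p up to 0.671). It was also lost without cave 7 dpi replicate 1 or 2, where the difference was -1.68 or -1.66.

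The gene gch2 (named after its values were seen), which in zebrafish makes the pterins of yellow pigment cells, also differed. It stood at 2.76 and 2.31 scaled TPM in surface fish at 7 dpi, against 0.0622, 0.0488 and 0.0520 at 1 dpi (1.74, SE 0.15, adjusted p = 2.33e-05). In cave fish it was listed at 0 in both libraries at 7 dpi, against 0.0311, 0 and 0.152 at 1 dpi. The difference of the changes was 1.83 (SE 0.21, adjusted p = 0.0018), and surface controls stood at 0.131 to 0.222 scaled TPM. With a pseudocount of 0.1 the adjusted p of the difference was 0.137.

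**Figure D5:**
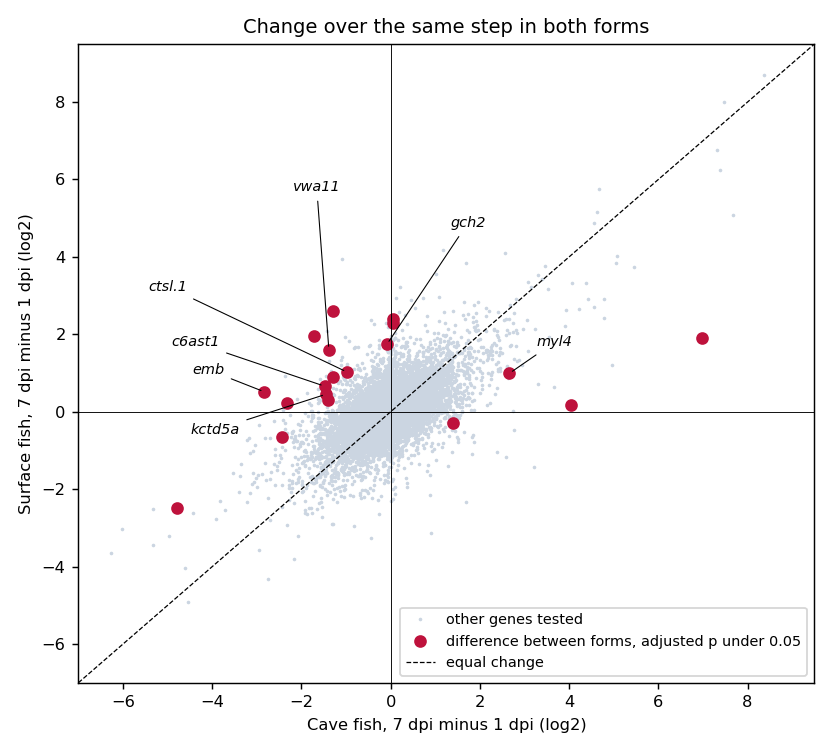
Change from 1 dpi to 7 dpi (log2) in surface fish against the same change in cave fish, 1 point per gene; the 19 genes whose difference passed the test are drawn large, and the dashed line marks equal change. Among the labelled genes emb, c6ast1, kctd5a, vwa11, ctsl.1 and gch2 lie above the line and myl4 below it.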

How the data were processed

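Per the labels, libraries were stranded, made from polyA RNA and sequenced as single reads. STAR 2.7.3a and RSEM 1.3.0 are named in the submitters' processing notes. No positions or sequences are printed, since the genome build is not given in the sources used here. The authors deposited RSEM TPM values for 27420 genes. TPM sum to 1000000 in each library, so depth is unknown and no counting intervals were computed. Genes reaching 1 TPM in 2 or more libraries were tested (16884), and TPM were divided by median-of-ratios factors over 9467 genes at 1 TPM or more in every library (1.046 and 1.026 at surface 7 dpi, against 0.9651, 1.434 and 1.921 at surface 1 dpi). Log2(scaled TPM + 1) was fitted with limma 3.58.1 in R 4.3.3 (8 group means, mean-variance trend, 12 residual degrees of freedom), and the script was tested on simulated data. The controls did not enter the contrast. Like all 20 libraries, they counted in the estimate of spread, the scaling factors and the choice of genes tested.

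The rule for named genes took the 12 steepest rises and the 12 steepest falls among called genes with a name, up to 3 members of each of 28 lists, fixed genes, and the 5 largest differences between forms in each direction; others are marked where they appear. Members and lists were chosen with earlier results of these data known, and 2 further lists were drawn up after the values were seen. Of the tested identifiers, 448 share a name with another. The alternatives were another pseudocount, filters, scalings, no trend, fewer libraries in the fit, a replicate block, and each library left out.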

Additional observations from a re-analysis of the deposited data

Results flagged for a closer look

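The change between 1 and 7 dpi differed between surface and cave fish, by the interaction test in limma, for 19 genes. Those named were emb (difference of the log2 changes, surface minus cave, 3.346), vwa11 (2.984), c6ast1 (2.144), ctsl.1 (2.003), kctd5a (1.903), gch2 (1.826, singled out after its values were seen) and myl4 (-1.668). Of these, emb stayed past the threshold in the 17 alternatives that tested it, with adjusted p up to 0.0161; it lies below a mean of 5 TPM, a filter under which 0 genes were called. The groups hold 2 or 3 libraries each, too few to ask whether a single library lies apart from its group.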

How the results depend on the processing

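The main fit called 741 genes. When only surface fish libraries entered the fit 158 were called, of which 143 were among the 741. When only the compared groups did 69 were called, of which 55 were among the 741. Leaving out 1 library gave 199 to 503 calls, counts that include genes outside the 741. Of the 503 called without surface 1 dpi replicate 1, 416 were among the 741. Whether the replicate numbers pair the libraries was not settled. Same-number deviations correlated at 0.0168 and -0.149, but the 2 deviations at 7 dpi mirror each other, so these values cannot decide it. With replicate number as a block 243 genes were called. For the difference between forms, 19 genes became 4 with a pseudocount of 0.1, 42 without a filter, 0 at a mean of 5 TPM or more, 33 without scaling, and 7 to 43 with 1 library left out. All 99 called results of named genes kept their direction, and 16 stayed past the threshold, in every alternative that tested them; only 70 were tested at a mean of 5 TPM or more. Without scaling 14 of the 99 were no longer called, among them asl, srl, kcnj11, megf10, myf5, tcf7, zap70, cd8b and NDUFS1. Of 23 results of named genes not called, ckma became -1.20 (adjusted p = 0.0154) under quantile normalization. List medians changed sign without scaling for the clock (-0.25), fibre assembly (-0.23), myogenic (-0.22) and neuromuscular junction lists (-0.20), for glycolysis with 1 library left out (-0.51 to 0.012) and for lymphocytes at a mean of 5 TPM or more (-0.24). Causes were not tested. Depth is unknown, so how far counting noise limits genes below a few TPM cannot be given.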
